A study of Mus musculus with 18 samples.

Results

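Described here are 37 genes of the machinery with which the endoplasmic reticulum (ER) imports, folds, ships and discards proteins, out of 19323 gene symbols measured by RNA sequencing of mouse spleen. They were taken by name, with earlier results of these data known, so their shares of calls are not independent of these data. They comprise 16 chaperones and disulfide isomerases, 9 subunits of the translocon, its associated complex and signal peptidase, 3 genes of export from the ER, 7 genes of ER-associated degradation (ERAD) and 2 sensors of the unfolded protein response (UPR). All 37 were in the table, and all 37 were among the 12967 genes with a level of 1 FPKM or more in 3 or more libraries; FPKM is a gene's share of the sequenced fragments per unit of its length.

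The 18 libraries were made from spleens of ICR mice, an outbred stock, at 10 weeks of age, in 6 groups of 3. The control group carried no agent in its label, and the AOS group was given AOS at 10 mg/kg, an abbreviation that the labels leave unexplained. The other 4 groups shared a high fat diet with streptozotocin (STZ), a toxin of pancreatic beta cells. HS had nothing else, HS_AOS also had AOS at 10 mg/kg, HS_AOSFMT had a faecal microbiota transplant (FMT) labelled for AOS at 10 mg/kg, and HS_conFMT had an FMT labelled as control. No group received a transplant without diet and STZ, and donors, sex, route and timing are not given in the labels. Its title names, as the question, whether the AOS transplant offsets what diet and STZ do to the spleen. The labels do not state that the libraries of a group are separate animals, so each p-value measures the spread between these libraries, which may be technical.

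Proteins bound for the cell surface or for secretion enter the ER through the Sec61 channel, lose their signal peptide to signal peptidase, and fold with the help of Hspa5 (BiP), Hsp90b1 (GRP94), the lectin chaperones Calr and Canx, and protein disulfide isomerases. Proteins that fail to fold are drawn back to the cytosol and degraded, which is ERAD. When unfolded proteins accumulate, the sensors Ern1 (IRE1), Atf6 and Eif2ak3 (PERK) start the UPR, in which the factors Atf6 and Xbp1 raise many of these genes through short promoter elements. In spleen, plasma cells are known for a large ER and high levels of this machinery, since they secrete antibody.

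The best known of these elements, the ER stress element, is a CCAAT box, a spacer of 9 bases of any kind and a CCACG box, searched on both strands. The promoter windows were RefSeq's (build GRCm38.p6, 250 bases before to 50 after the start), in which 29 of the 37 genes were matched. Each line gives the gene strand, 5′ to 3′, with the 2 boxes in capitals and 15 bases on either side of the element (5 where the stretch overlaps the annotated gene, as in Hspa5 and Sec24d). The lines are shown because, of the promoter elements searched, this one was in the most members (8 of the 29 matched). Boxes read CCAAT then CCACG where the element lies on the gene strand, and CGTGG then ATTGG where it lies on the opposite strand.
Hspa5: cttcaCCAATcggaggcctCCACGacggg
Hsp90b1, farther copy: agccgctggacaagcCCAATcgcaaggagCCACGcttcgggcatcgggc
Hsp90b1, nearer copy: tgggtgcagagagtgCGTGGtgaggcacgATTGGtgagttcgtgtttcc
Calr: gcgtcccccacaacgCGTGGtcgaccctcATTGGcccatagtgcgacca
Canx: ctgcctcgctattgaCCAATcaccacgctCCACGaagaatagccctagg
Pdia6: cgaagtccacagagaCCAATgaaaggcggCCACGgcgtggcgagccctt
Creld2: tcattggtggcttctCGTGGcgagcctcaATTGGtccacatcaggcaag
Dnajc3: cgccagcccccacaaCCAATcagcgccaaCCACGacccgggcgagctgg
Syvn1: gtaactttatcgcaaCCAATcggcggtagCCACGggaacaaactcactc

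The element lay at chr2:34772025-34772043 in Hspa5, at chr10:86705638-86705656 and chr10:86705533-86705551 in Hsp90b1, and at chr8:84847075-84847093 in Calr. In the other genes it lay at chr11:50325800-50325818 (Canx), chr12:17266491-17266509 (Pdia6), chr15:88819520-88819538 (Creld2), chr14:118937827-118937845 (Dnajc3) and chr19:6046532-6046550 (Syvn1). Hspa5, Creld2, Dnajc3, Pdia6 and Syvn1 are on the plus strand and Hsp90b1, Calr and Canx on the minus strand. In Hspa5 it lies inside the gene as GENCODE M21 annotates it, which begins upstream of the RefSeq start, and in the other 7 genes before the annotated gene.

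The ER stress element was present in 8 of the 29 matched members (27.6%), against 37 of the 27025 genes in the promoter table (0.137%) and 1 of 66 matched pathway genes outside the list, Derl3. By role, 7 of the 8 were chaperones or isomerases and the other was Syvn1, the ubiquitin ligase of ERAD. The element was first described from promoters of ER chaperones, Hspa5, Hsp90b1 and Calr among them, so this share is not independent of how the element was defined. Another 2 elements were searched on both strands in the same windows: ER stress element II, which is ATTGG, a base of any kind and CCACG, and the UPR element, TGACGTGG. The first was in Herpud1 and Dnajb11, 2 of 29 members (6.90%) against 0.0444% of all genes, and the second in Sec24d, 1 of 29 (3.45%) against 0.714%; of the 66 pathway genes 6 held it (9.09%). In Dnajb11 the element lay after the start and its sequence is not printed. The lines show Herpud1 (chr8:94386377-94386387, plus strand) and Sec24d (chr3:123267470-123267477, plus strand) with the fixed letters in capitals.
Herpud1: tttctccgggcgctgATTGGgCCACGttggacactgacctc
Sec24d: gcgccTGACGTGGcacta

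A match describes these letters in this window and does not show that a factor binds there. Hyou1, Manf, Sec61a1, Ssr2, Spcs3, Lman1, Derl1 and Atf6 had no entry in the table.

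**Figure D1:**
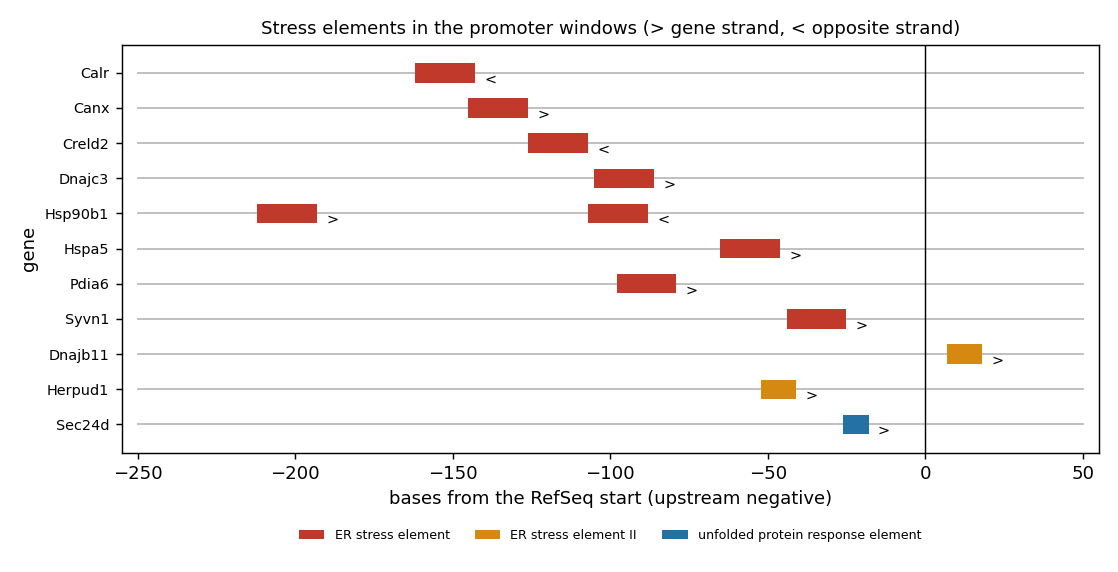
Position of each matched element in the promoter windows of the 11 members that hold one (x axis: bases from the RefSeq start, upstream negative; colours: the 3 elements; arrowheads: strand relative to the gene). The ER stress elements lay before the start, with 25 to 193 bases in between, and Hsp90b1 held 2 of them.

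Libraries that stood apart from their groups are given first, since several results touch them. The share of haemoglobin genes in the summed FPKM was 12.9% to 17.6% for HS_AOSFMT libraries and 14.7% to 35.5% elsewhere; the 2 highest shares were those of HS_conFMT 1 (35.5%) and control 1 (34.3%), which also held the lowest summed levels of the 37 genes in their groups (2169 and 2437 FPKM). Neutrophil and granule genes summed to 15668 FPKM in control 1 and to 574 to 4277 in the other 17 libraries. Pancreatic acinar markers (17 genes) summed to 22691 FPKM in HS 1 and 25145 in HS_AOS 1, against 22.6 to 62.2 in HS_AOSFMT. B cell markers, which check the label of spleen, summed to 1515 to 2844 FPKM in all 18 libraries. In bulk tissue, fewer cells of a type and less RNA per cell cannot be told apart.

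Over the 6 groups, limma's moderated F test called 18 of the 37 genes, where called means a Benjamini-Hochberg adjusted p under 0.05 over all 12967 genes, and where 5.08% of all genes were called. The calls fell on 12 of 16 chaperones and isomerases, 3 of 9 translocon and signal peptidase genes, 2 of 3 export genes, 1 of 7 ERAD genes and 0 of 2 sensors. At an unadjusted F test p under 0.05 there were 16, 7, 3, 7 and 0, where 3266 of the 12967 genes lay under 0.05. Among the chaperones, the smallest p-values belonged to Hsp90b1 (adjusted p = 0.00458), Pdia3 and Pdia6 (both 0.00482) and Hspa5 (0.0116). The count depended on single libraries: it was 10, 6 and 4 without HS_AOSFMT 1, 2 and 3 in turn, and 8 without AOS 1. The count over all genes moved too, from 659 to 80 without HS_AOSFMT 3. With the mean level of the acinar markers as a covariate the members' count was 11 and that over all genes 217.

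The highest group mean was that of HS_AOSFMT in 18 members and that of AOS in the other 19, while the lowest was that of control in 14, HS_conFMT in 11, HS_AOS in 10 and HS_AOSFMT in 2. Over all genes, 39.6% had their highest mean in HS_AOSFMT and 18% in AOS, and 22.7%, 14%, 10.7% and 18.4% had their lowest in control, HS_conFMT, HS_AOS and HS_AOSFMT. The roles divided between these 2 groups: 12 of 16 chaperones and isomerases had their highest mean in HS_AOSFMT, and 7 of 9 translocon and signal peptidase genes, 4 of 7 ERAD genes and both sensors in AOS. All 3 HS_AOSFMT libraries lay above the other 15 in 8 members (8.04% of all genes), and all 3 AOS libraries in 3 members, Sec61a1, Spcs1 and Sec24d (0.733% of all genes).

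**Figure D2:**
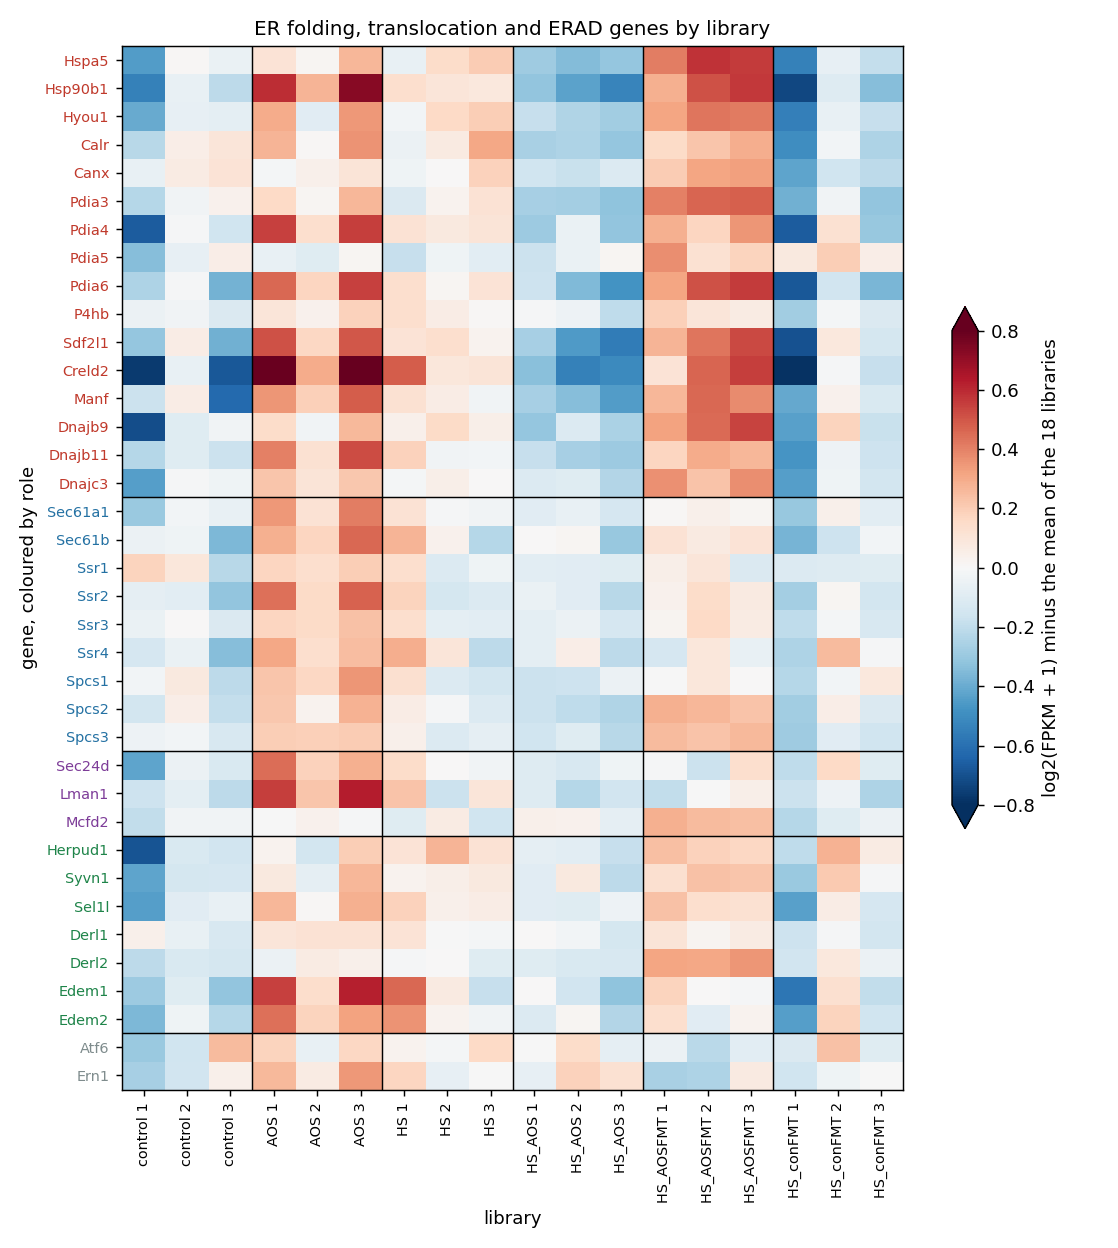
Level of each of the 37 genes (rows, names coloured by role) in each of the 18 libraries (columns), as log2(FPKM + 1) minus the gene's mean over the libraries. Most chaperone rows are red in the HS_AOSFMT, AOS 1 and AOS 3 columns and blue in HS_AOS, HS_conFMT 1 and control 1; Pdia5 among them, and the 2 sensors at the foot of the plot, do not follow that pattern.

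Hspa5 (chr2:34771970-34777547; gene coordinates are GENCODE M21's on GRCm38, which is mm10), the main Hsp70-type chaperone of the ER, stood at 195, 269 and 257 FPKM in control, 288, 269 and 320.2 in AOS, 255, 295 and 307 in HS, 219, 209.8 and 215 in HS_AOS, 355, 398 and 394 in HS_AOSFMT and 183, 255 and 234 in HS_conFMT. The 3 HS_AOSFMT libraries were the highest of the 18, and the HS_AOS libraries lay close together below every AOS and HS library. Hsp90b1 (chr10:86690209-86705509), the Hsp90 of the ER and a folding factor for integrins and Toll-like receptors, stood at 249.6, 349.7 and 314 FPKM in control, 549, 440.3 and 603 in AOS, 399.7, 389 and 387 in HS, 292, 271 and 252 in HS_AOS, 443, 519 and 539.5 in HS_AOSFMT and 219, 338 and 287 in HS_conFMT. AOS and HS_AOSFMT overlapped at the top, HS followed in a narrow range, and HS_AOS, HS_conFMT and control overlapped at the bottom. Hyou1, a large Hsp70 relative that releases nucleotide from BiP, stood at 23.1, 29.4 and 29.2 FPKM in control, 38.1, 29 and 39.6 in AOS, 30.4, 34.6 and 35.5 in HS, 27.1, 25.9 and 25.3 in HS_AOS, 38.8, 41.9 and 41.6 in HS_AOSFMT and 20.8, 29.6 and 27 in HS_conFMT. Only AOS 3 lay within the HS_AOSFMT range, and all other libraries lay below it.

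Calr (chr8:84841850-84846934), a calcium-binding lectin chaperone, stood at 279, 337 and 348 FPKM in control, 393, 327 and 417 in AOS, 315, 342 and 403 in HS, 271, 274 and 263 in HS_AOS, 362, 379 and 399 in HS_AOSFMT and 230.2, 319 and 274 in HS_conFMT. The AOS, HS and HS_AOSFMT ranges overlapped, and all 3 HS_AOS libraries lay below them. Canx (chr11:50293961-50325673), its membrane-bound counterpart, stood at 79, 86.1 and 89 FPKM in control, 81.5, 84.6 and 88.4 in AOS, 80.4, 82.5 and 93.6 in HS, 73.6, 72.7 and 76.4 in HS_AOS, 95.1, 103 and 104 in HS_AOSFMT and 61.2, 73.8 and 71.2 in HS_conFMT. Here HS_AOSFMT was above all other libraries, the means of AOS and control were close (84.8 ± 3.47 and 84.7 ± 5.16 FPKM, SD, n = 3), and HS_conFMT had the lowest mean. Pdia3 (chr2:121413775-121438687), the disulfide isomerase that works with both lectins and in the loading of MHC class I, stood at 173, 198 and 208 FPKM in control, 226, 205 and 244 in AOS, 187, 207 and 219 in HS, 169, 168 and 162 in HS_AOS, 269, 280.1 and 283 in HS_AOSFMT and 155, 198 and 162 in HS_conFMT. All HS_AOSFMT libraries were above the highest AOS library, and all HS_AOS libraries were below every control, AOS and HS library.

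Pdia6 (chr12:17266545-17284770), an isomerase that also dampens Ern1 signalling, stood at 82.7, 97.5 and 75.4 FPKM in control, 135, 111 and 144 in AOS, 108, 99.3 and 106 in HS, 87.6, 76.7 and 70.4 in HS_AOS, 122, 141 and 145 in HS_AOSFMT and 61.1, 88.2 and 76.2 in HS_conFMT. AOS and HS_AOSFMT overlapped, and both lay above every other library. The isomerase Pdia4 stood at 38.4, 61.2 and 54.9 FPKM in control, 90.2, 67.8 and 90.8 in AOS, 66.7, 65.1 and 66.3 in HS, 50.2, 59.3 and 49.3 in HS_AOS, 75.3, 69.6 and 78.9 in HS_AOSFMT and 38.5, 67.1 and 49.8 in HS_conFMT, with its highest values in AOS 1 and AOS 3 and its lowest in control 1 and HS_conFMT 1. P4hb, the founding member of the isomerase family, had group means between 96.1 FPKM in HS_conFMT and 115 in HS_AOSFMT. Pdia5, at a far lower level, ranged from 4.88 ± 0.801 in control to 6.41 ± 0.684 in HS_AOSFMT (SD, n = 3).

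Among the smaller chaperones and co-chaperones, Creld2, an ER protein with isomerase activity, had the highest ratio of highest to lowest group mean among the 37 genes (2.31). It stood at 25.5, 42.3 and 27.1 FPKM in control, 77, 54.3 and 87.6 in AOS, 62, 47 and 47.3 in HS, 34.8, 29.9 and 30.7 in HS_AOS, 47.6, 61.2 and 65.1 in HS_AOSFMT and 25, 43.8 and 38.7 in HS_conFMT. All AOS libraries were above all control libraries, and HS_AOSFMT overlapped with AOS and HS. Sdf2l1, a partner of Dnajb11 in BiP cycling, stood at 25.6, 33.5 and 24.4 FPKM in control, 46.1, 36 and 45.6 in AOS, 34.7, 35.3 and 32.7 in HS, 26.5, 23.2 and 21.4 in HS_AOS, 39, 43.5 and 46.6 in HS_AOSFMT and 19.4, 34 and 29 in HS_conFMT. Manf, a chaperone-like protein that is also secreted, stood at 54.2, 63.6 and 39.3 FPKM in control, 78.2, 69.8 and 85.8 in AOS, 66.6, 63.6 and 59.8 in HS, 50.6, 48 and 44.6 in HS_AOS, 73.6, 84.1 and 79.7 in HS_AOSFMT and 45.6, 62.6 and 55.9 in HS_conFMT. In both, AOS and HS_AOSFMT overlapped above HS_AOS.

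The J-domain co-chaperones present clients to BiP. Dnajb11 stood at 49.8, 54.5 and 51.7 FPKM in control, 77.6, 63.8 and 84.2 in AOS, 66.4, 57.3 and 57.4 in HS, 51.4, 48.3 and 47.5 in HS_AOS, 65.8, 72.1 and 70.5 in HS_AOSFMT and 41.8, 56.8 and 51.9 in HS_conFMT, with AOS at the top and HS_AOSFMT within its range. Dnajb9 (ERdj4), which also holds Ern1 inactive, stood at 19.7, 30.7 and 32.2 FPKM in control, 36.4, 32.2 and 39.5 in AOS, 33.7, 36.6 and 34 in HS, 26.3, 30.3 and 27.3 in HS_AOS, 41.3, 45.4 and 48.1 in HS_AOSFMT and 24.1, 37.2 and 28.8 in HS_conFMT. Dnajc3, known as an inhibitor of PERK and as a co-chaperone, stood at 18.9, 25.7 and 25.4 FPKM in control, 30.4, 28 and 30.2 in AOS, 25.7, 26.8 and 26 in HS, 23.9, 24.2 and 21.9 in HS_AOS, 33.7, 30.6 and 33.8 in HS_AOSFMT and 18.9, 25.3 and 23.3 in HS_conFMT. In Dnajb9 and Dnajc3 the 3 HS_AOSFMT libraries were above the other 15, in Dnajc3 by a narrow margin over AOS 1.

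**Figure D3:**
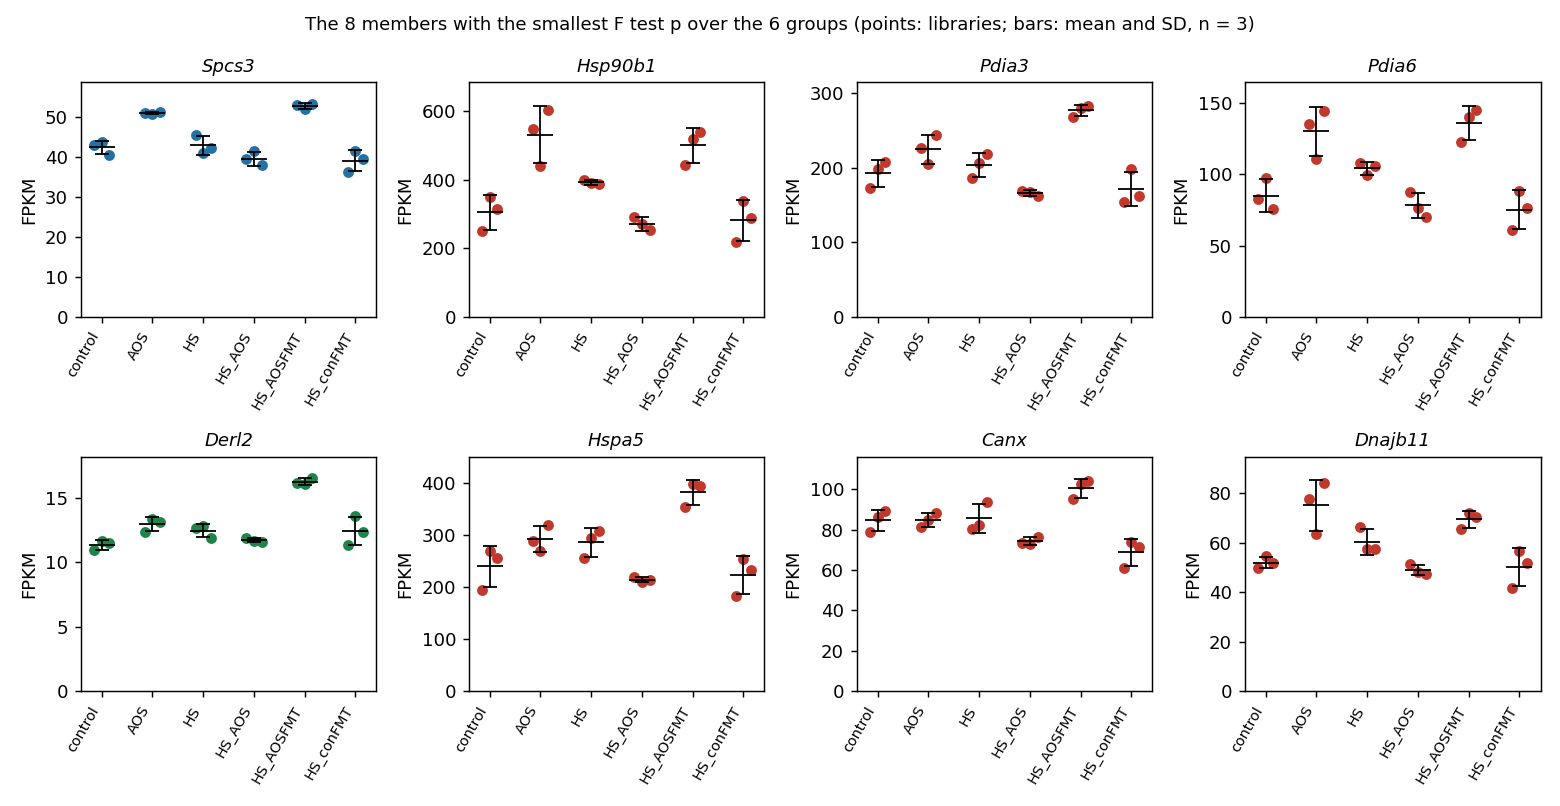
FPKM (y axis, from 0) in the 6 groups (x axis) of the 8 members with the smallest F test p; points are libraries and bars the mean and SD of 3. HS_AOSFMT was the highest group in Spcs3, Pdia3, Pdia6, Derl2, Hspa5 and Canx, and AOS in Hsp90b1 and Dnajb11.

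Among the translocon and signal peptidase genes, Spcs3 (chr8:54520433-54529998), a subunit of signal peptidase, had the smallest F test p of the 37 genes (adjusted p = 0.0038) and stood at 43.1, 43.6 and 40.4 FPKM in control, 51, 50.6 and 51.2 in AOS, 45.6, 41 and 42.1 in HS, 39.5, 41.4 and 37.9 in HS_AOS, 53, 51.9 and 53.3 in HS_AOSFMT and 36.2, 41.5 and 39.5 in HS_conFMT. HS_AOSFMT was just above AOS and both were above all other libraries. Spcs2, its partner subunit, stood at 75.5, 87.2 and 73.4 FPKM in control, 97.6, 85.6 and 102 in AOS, 87.4, 83.3 and 77.7 in HS, 74.2, 72.8 and 70.8 in HS_AOS, 102, 101 and 98.6 in HS_AOSFMT and 69, 87.1 and 77.2 in HS_conFMT, with HS_AOSFMT and AOS overlapping. Spcs1, the third subunit, did not follow: its mean was 79.3 ± 3.02 FPKM in HS_AOSFMT and 92.4 ± 6.26 in AOS, against 75.1 ± 7.58 in control.

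The channel and its associated complex peaked in AOS. Sec61a1, the pore of the channel, stood at 60.4, 51.4 and 63.2 FPKM in AOS, above all other libraries, of which the highest was HS 1 at 51.2. Ssr2, a subunit of the translocon-associated (TRAP) complex, stood at 102, 101 and 85.8 FPKM in control, 146, 119 and 148 in AOS, 121, 96.6 and 99 in HS, 103, 100.1 and 91.3 in HS_AOS, 109, 118 and 112 in HS_AOSFMT and 88.3, 108 and 96.3 in HS_conFMT. Its AOS and HS ranges overlapped only through HS 1. For Sec61b and the TRAP subunits Ssr1, Ssr3 and Ssr4, AOS means were 238, 38.9, 92.5 and 126 FPKM, and HS_AOSFMT means 206, 34.8, 86 and 104 FPKM.

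Lman1 (ERGIC-53) and Mcfd2 form the receptor that carries coagulation factors V and VIII to the Golgi, and Sec24d selects cargo for COPII vesicles. Lman1 stood at 18.5, 19.8 and 18 FPKM in control, 31.2, 24.6 and 33 in AOS, 24.7, 18.5 and 22.5 in HS, 19.4, 17.7 and 18.7 in HS_AOS, 18.1, 20.9 and 21.7 in HS_AOSFMT and 18.4, 20.4 and 17.5 in HS_conFMT. AOS 1 and AOS 3 were above all others, and AOS 2 lay just below HS 1. Mcfd2 stood at 21.6, 24.4 and 24.4 FPKM in control, 24.9, 25.6 and 24.7 in AOS, 23.3, 26.1 and 22.2 in HS, 25.6, 25.6 and 23.7 in HS_AOS, 30.6, 29.8 and 29.6 in HS_AOSFMT and 21.1, 23.2 and 24.1 in HS_conFMT. It was highest in HS_AOSFMT and about level in the other groups, so the 2 subunits of the receptor had their highest means in different groups. Sec24d stood at 6.74, 9.02 and 8.49 FPKM in control, 13.1, 10.8 and 11.6 in AOS, 10.5, 9.37 and 9.15 in HS, 8.64, 8.47 and 9.12 in HS_AOS, 9.28, 8.19 and 10.4 in HS_AOSFMT and 7.97, 10.6 and 8.67 in HS_conFMT, with all 3 AOS libraries highest.

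Of the ERAD genes, Derl2 (chr11:71007164-71019841), a derlin of the exit channel, was the only ERAD gene among the 37 called in the F test (adjusted p = 0.00718) and stood at 10.9, 11.7 and 11.5 FPKM in control, 12.3, 13.4 and 13.2 in AOS, 12.7, 12.8 and 11.9 in HS, 11.9, 11.7 and 11.6 in HS_AOS, 16.1, 16.1 and 16.6 in HS_AOSFMT and 11.4, 13.6 and 12.3 in HS_conFMT. All HS_AOSFMT libraries were above the other 15. Herpud1, which gathers the ligase complex, stood at 46.8, 69.6 and 68.2 FPKM in control, 77.3, 68.6 and 87.2 in AOS, 82, 92.1 and 82.3 in HS, 72.3, 71.6 and 66.7 in HS_AOS, 89.7, 86.5 and 85.2 in HS_AOSFMT and 65.8, 92.4 and 79.4 in HS_conFMT, and control 1 was far below the rest. Syvn1 (HRD1) stood at 46.4, 56.8 and 57 FPKM in control, 66.2, 59.5 and 75.3 in AOS, 63.9, 64.7 and 66.1 in HS, 58.7, 66 and 54 in HS_AOS, 68.6, 73.8 and 73.2 in HS_AOSFMT and 50.7, 72.6 and 62.1 in HS_conFMT. Sel1l, its adaptor, stood at 15.4, 19.8 and 20.3 FPKM in control, 25.6, 21.4 and 26.1 in AOS, 24.2, 21.9 and 22.2 in HS, 19.9, 19.8 and 20.6 in HS_AOS, 25.1, 23.3 and 23.1 in HS_AOSFMT and 15.4, 22.1 and 19.2 in HS_conFMT. In both, control 1 and HS_conFMT 1 were the 2 lowest libraries. Edem2, a mannosidase that marks misfolded glycoproteins, had means from 27.8 ± 3.33 in control to 40.2 ± 3.67 in AOS, Edem1 from 32.9 ± 2.93 to 53.5 ± 9.29, and Derl1 from 43.5 ± 2.62 in HS_conFMT to 50.7 ± 0.333 FPKM in AOS.

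The sensors were low. Atf6 stood at 9.17, 10.2 and 13.9 FPKM in control, 13.1, 11 and 13 in AOS, 11.7, 11.3 and 12.9 in HS, 11.5, 12.8 and 10.9 in HS_AOS, 11.1, 9.74 and 10.8 in HS_AOSFMT and 10.5, 13.7 and 10.7 in HS_conFMT. Ern1 stood at 3.01, 3.35 and 3.96 FPKM in control, 4.78, 4.05 and 5.14 in AOS, 4.43, 3.62 and 3.82 in HS, 3.62, 4.48 and 4.26 in HS_AOS, 3.04, 3.07 and 4.08 in HS_AOSFMT and 3.33, 3.71 and 3.81 in HS_conFMT. Both had their highest mean in AOS and their lowest in HS_AOSFMT, in the comparisons made their groups overlapped except for Ern1 in AOS against control and Atf6 in HS_AOSFMT against HS, and neither was called in the F test or in any comparison.

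Diet and STZ alone (HS against control) left no member called by limma, where 0.0154% of all genes were called; 9 members had an unadjusted p under 0.05, as had 830 of the 12967 genes. The direction was shared, with 36 of 37 positive and a median log2 change of 0.17, against -0.01 over all genes. Herpud1 had the smallest p (log2 change 0.49, SE 0.141, adjusted p = 0.515), followed by Creld2 (log2 change 0.73, SE 0.228, adjusted p = 0.6). Both had no overlap between the groups, as had 14 members in all, each higher in HS; of all genes 3.89% were higher and 4.65% lower without overlap. Plasma cell markers outside the ER were also higher in HS (8 of 8 positive, 0 called by limma and 4 with an unadjusted p under 0.05; summed levels 717 to 1225 FPKM in HS and 419 to 842 in control), and with their mean level as a covariate the members' median was 0.026, with 24 of 37 positive. Pancreatic acinar markers were higher too (16 of 17 positive, median 4.45, 0 called by limma, 14 with an unadjusted p under 0.05). They summed to 2582 to 22691 FPKM in HS and 26.7 to 2069 in control. Fitting the acinar level as covariate instead gave a members' median of 0.20, with 33 of 37 positive. That level did not overlap between the groups, so it cannot be told apart from the group. The part of either list in the result was not tested.

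AOS under diet and STZ (HS_AOS against HS) was likewise without a call, among the members and among all genes (0%); 11 members, all of them chaperones or isomerases, had an unadjusted p under 0.05, as had 674 of the 12967 genes. The members lay lower in HS_AOS, with 3 of 37 positive and a median of -0.17, against 0.04 over all genes. The groups did not overlap in 21 members, all lower in HS_AOS, where 2.74% of all genes were lower and 8.21% higher without overlap; 15 of the 21 were chaperones or isomerases. Hsp90b1 stood at 292, 271 and 252 FPKM in HS_AOS and 399.7, 389 and 387 in HS (log2 change -0.53, SE 0.155, adjusted p = 0.714). Hspa5 gave log2 change -0.41, SE 0.13, adjusted p = 0.788, and Sdf2l1 log2 change -0.52, SE 0.167, adjusted p = 0.809. The summed level of the 16 chaperones and isomerases was 1403 to 1513 FPKM in HS_AOS and 1852 to 1985 in HS. Heat shock genes of the cytosol and mitochondria (12 genes) summed to 2608, 4936 and 5726 FPKM in HS and 2366 to 2969 in HS_AOS (0 called by limma, 9 with an unadjusted p under 0.05, 0 positive); their part in the result was not tested.

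Without diet and STZ, the AOS difference had the opposite sign. In AOS against control all 37 members were positive (36 when libraries were scaled to the same sum outside the haemoglobin genes), with a median of 0.35 against 0.05 over all genes. No member was called by limma (0.00771% of all genes called), although 30 had an unadjusted p under 0.05 (1471 of the 12967 genes in all) and 28 did not overlap, all higher in AOS (11.6% of all genes). Lman1 had the smallest p (log2 change 0.62, SE 0.114, adjusted p = 0.0955), then Hsp90b1 (log2 change 0.80, SE 0.155, adjusted p = 0.1) and Creld2 (log2 change 1.19, SE 0.228, adjusted p = 0.1). Creld2 was called without control 2 (adjusted p = 0.0338) and Lman1 without AOS 2 (adjusted p = 0.0438), with 0.0697% and 0.0232% of all genes called. Each was called in 1 of the 6 fits that left out 1 library. By role the medians were 0.39 for chaperones and isomerases, 0.30 for the translocon and signal peptidase, 0.50 for export, 0.35 for ERAD and 0.26 for the sensors.

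Plasma cell markers outside the ER moved with this difference. Their 8 genes were all positive in AOS against control (median 0.79, 0 called by limma, 7 with an unadjusted p under 0.05), and their summed level was 1107, 937 and 1052 FPKM in AOS and 419, 842 and 424 in control. Jchain, which links antibody units into polymers, had means of 902 ± 63.9 and 489 ± 234 FPKM, and Eaf2 of 39.1 ± 12.5 and 9.51 ± 4.73 (SD, n = 3). With the mean level of these markers as a covariate, the members' median was 0.020 with 22 of 37 positive. That level, as mean log2(FPKM + 1), did not overlap between the groups (4.33 to 4.80 in AOS, 3.54 to 4.13 in control). Their part in the result therefore cannot be told apart from that of AOS. Haemoglobin shares were 17.2% to 25.6% in AOS and 21.5% to 34.3% in control, and the median with the erythroid level as a covariate was 0.22. Neutrophil and granule genes were lower in AOS (0 of 9 positive, median -2.02, 0 called by limma, 9 with an unadjusted p under 0.05), and T cell markers higher (8 of 8 positive, median 0.36, 0 called, 4 with an unadjusted p under 0.05); their part in the result was not tested.

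The difference between the 2 AOS effects, (HS_AOS - HS) - (AOS - control), was negative in all 37 members, with a median of -0.55 against 0.00 over all genes. After scaling outside haemoglobin, and with the erythroid covariate, 2 members were positive. No member was called by limma (0.00771% of all genes), and 31 had an unadjusted p under 0.05 (773 of the 12967 genes in all). Hsp90b1 came nearest (log2 change -1.33, SE 0.219, adjusted p = 0.123), followed by Creld2 (log2 change -1.88, SE 0.323, adjusted p = 0.15) and Pdia6 (log2 change -1.02, SE 0.193, adjusted p = 0.237). Hsp90b1 and Creld2 were called without control 2 (adjusted p = 0.0483 and 0.0297), and Hsp90b1, Creld2 and Lman1 without AOS 2 (all 0.0422). In each of these fits 0.031% of all genes were called. Of the 12 fits that left out 1 library, Hsp90b1 and Creld2 were each called in 2 and Lman1 in 1. Their highest limma adjusted p among the 12 was 0.543, 0.617 and 0.831. Hsp90b1 was also called after scaling (adjusted p = 0.0452), with the erythroid covariate (0.0234) and without HS_conFMT 1 and control 1 together (0.0355). These were 3 of the 9 other alternatives, with 0.0154% to 0.0232% of all genes called. With the plasma cell covariate the median was -0.13 and 3 of 37 were positive, and the part of plasma cells in the result was not tested.

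Against diet and STZ alone, the AOS transplant (HS_AOSFMT against HS) gave 4 called members, all higher, where 9.23% of all genes were called, 8.08% higher and 1.15% lower. They were Pdia3 (log2 change 0.44, SE 0.0997, adjusted p = 0.0183), Spcs3 (log2 change 0.29, SE 0.064, adjusted p = 0.016), Mcfd2 (log2 change 0.32, SE 0.0729, adjusted p = 0.0182) and Derl2 (log2 change 0.36, SE 0.067, adjusted p = 0.00754). The share of members called was thus close to the share of all genes. The median of all 37 was 0.14 against 0.10 over all genes; that of the chaperones and isomerases was 0.31 with 16 of 16 positive, that of the translocon and signal peptidase 0.07, and that of the sensors -0.18. Hspa5 missed the threshold (log2 change 0.42, SE 0.13, adjusted p = 0.0553), although its groups did not overlap. In all, 17 members were higher without overlap (30.8% of all genes) and Atf6 lower (7.64%).

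Of the 4, only Derl2 was called whichever of the 6 libraries was left out. The count was 1 without HS_AOSFMT 1 or HS_AOSFMT 3 (1.55% and 2.28% of all genes). It was 2 without HS 1 or HS 3 (2.05% and 2.90%), and the median was 0.091 without HS 2. Scaled to the same sum outside haemoglobin, the count was 1 (3.07% of all genes) and the median 0.05 against 0.01 over all genes, and the share of higher among all called genes went from 87.6% to 68.3%. Haemoglobin shares were 12.9% to 17.6% in HS_AOSFMT and 26.8% to 29.1% in HS, and acinar markers summed to 22.6 to 62.2 FPKM and 2582 to 22691 FPKM. With the acinar level as a covariate no member was called by limma, and 0.123% of all genes were. The acinar level, as mean log2(FPKM + 1), did not overlap between the groups (0.62 to 1.94 in HS_AOSFMT, 6.61 to 9.53 in HS). It therefore cannot be told apart from the group. With the plasma cell level as a covariate 13 members were called (8.33% of all genes). T cell markers summed to 337 to 418 FPKM in HS and 498 to 617 in HS_AOSFMT (4 of 8 called higher), and their part in the result was not tested.

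The control transplant (HS_conFMT against HS) had no called member by limma (0.00771% of all genes called), and 11 members had an unadjusted p under 0.05, as had 819 of the 12967 genes. The members lay lower, with 1 of 37 positive, which was Pdia5, and a median of -0.21 against 0.03 over all genes. Without overlap there were 9 lower (2.99% of all genes), all chaperones or isomerases, and 1 higher, Pdia5 (7.78%). Canx had the smallest p (log2 change -0.31, SE 0.0813, adjusted p = 0.492), at 61.2, 73.8 and 71.2 FPKM in HS_conFMT and 80.4, 82.5 and 93.6 in HS. Pdia6 gave log2 change -0.48, SE 0.136, adjusted p = 0.599. The median was -0.10 without HS_conFMT 1, the library with the highest haemoglobin share.

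The 2 transplants differed from each other. In HS_AOSFMT against HS_conFMT, 16 of 37 members rose and none fell, where 5.85% of all genes were called, 4.81% higher and 1.04% lower. The calls were 12 of 16 chaperones and isomerases (all but Pdia4, Pdia5, P4hb and Creld2), the signal peptidase subunits Spcs2 and Spcs3, Mcfd2 and Derl2. The median over the 37 was 0.33 against 0.06 over all genes, and 0.57 for the chaperones and isomerases, 0.20 for the translocon and signal peptidase, 0.10 for export, 0.23 for ERAD and -0.10 for the sensors. Pdia6 (log2 change 0.86, SE 0.136, adjusted p = 0.00332) and Hsp90b1 (log2 change 0.85, SE 0.155, adjusted p = 0.00712) changed most, from 75.2 ± 13.6 to 136 ± 12 FPKM and from 281 ± 59.9 to 500.4 ± 50.7 FPKM (SD, n = 3).

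The Hspa5 mean was 382 ± 24 FPKM in HS_AOSFMT and 224 ± 36.9 in HS_conFMT, a rise with log2 change 0.78, SE 0.13, adjusted p = 0.00433. For Pdia3 the means were 277 ± 7.61 and 172 ± 23.2 (log2 change 0.69, SE 0.0997, adjusted p = 0.00205). Canx gave log2 change 0.55, SE 0.0813, adjusted p = 0.00231, and Spcs3 log2 change 0.42, SE 0.064, adjusted p = 0.00237. Creld2 missed the threshold (log2 change 0.70, SE 0.228, adjusted p = 0.0821). None of the 16 called members overlapped between the groups, and in all 24 members were higher without overlap and 0 lower (21.5% and 7.27% of all genes). The other 6 ERAD genes were not called and had positive changes, from 0.15 in Herpud1 to 0.33 in Sel1l, and both sensors had negative ones.

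Of the 16 calls, 8 were made whichever of the 6 libraries was left out (Hspa5, Hsp90b1, Canx, Pdia3, Pdia6, Spcs3, Mcfd2 and Derl2). The count was 8 without HS_conFMT 1 (1.53% of all genes) and 9 without each of the 3 HS_AOSFMT libraries in turn (1.78% to 2.07%). It was 10 without HS_conFMT 3 (2.46%) and 20 without HS_conFMT 2 (9.28%), and the median was 0.20 without HS_conFMT 1. Scaled to the same sum outside haemoglobin, 13 members were called (3.39% of all genes), the median was 0.25 against -0.02, the share of higher among all called genes went from 82.2% to 52.4%, and with the erythroid level as a covariate 15 were called (8.93%). With the acinar level as a covariate 8 were called (2.42%), and with only these 2 groups fitted 4, where 191 of all genes were called. The acinar level, as mean log2(FPKM + 1), did not overlap between the groups (0.62 to 1.94 in HS_AOSFMT, 2.07 to 7.35 in HS_conFMT). It therefore cannot be told apart from the group. Heat shock genes summed to 5232 to 6789 FPKM in HS_AOSFMT and 3217 to 3860 in HS_conFMT, with 3 of 12 called higher, and T cell markers to 498 to 617 and 351 to 504 FPKM (0 of 8 called by limma, 4 with an unadjusted p under 0.05); their part in the result was not tested. Plasma cell markers outside the ER went both ways (4 of 8 positive, log2 changes -0.95 to 0.45, 1 called lower), with sums of 623 to 661 and 679 to 799 FPKM. With their mean level as a covariate 20 members were called (5.64% of all genes).

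**Figure D4:**
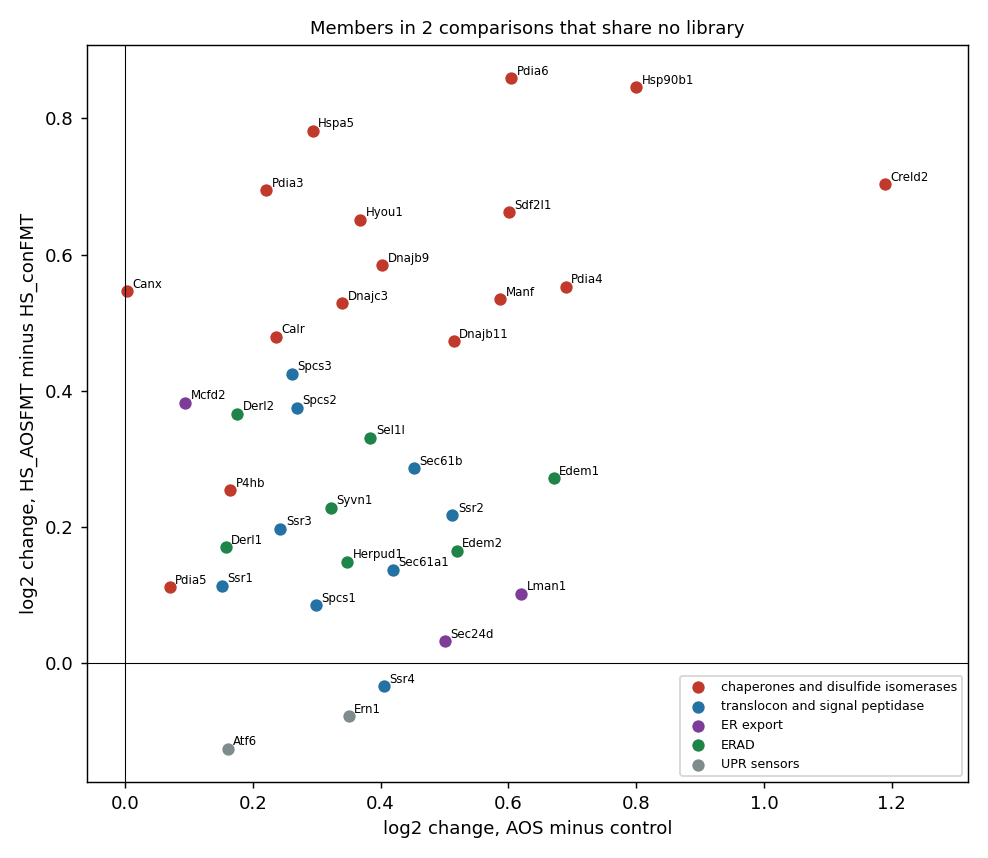
Log2 change of each member in AOS minus control (x axis) and in HS_AOSFMT minus HS_conFMT (y axis), 2 comparisons with no library in common; colours give the role. All 37 points lie to the right of 0 and 34 lie above 0, with chaperones highest on the y axis and Lman1 and Sec24d to the right but near 0 on the y axis.

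Against AOS dosing under the same diet and STZ (HS_AOSFMT against HS_AOS), 17 members rose and none fell, where 8.57% of all genes were called, 6.42% higher and 2.14% lower. They were 13 chaperones and isomerases (all but Pdia4, Pdia5 and P4hb), Spcs2, Spcs3, Mcfd2 and Derl2. The median was 0.29 against 0.06 over all genes, and 0.64 for the chaperones and isomerases. Pdia3 had the smallest p (log2 change 0.74, SE 0.0997, adjusted p = 0.000949), and Hsp90b1 the largest change (log2 change 0.88, SE 0.155, adjusted p = 0.00443), followed by Creld2 (log2 change 0.84, SE 0.228, adjusted p = 0.0356). Hspa5 gave log2 change 0.83, SE 0.13, adjusted p = 0.00247, and Manf log2 change 0.72, SE 0.144, adjusted p = 0.00876. The groups did not overlap in 29 members, all higher in HS_AOSFMT (24.4% of all genes were higher and 10.4% lower without overlap), among them all 16 chaperones and isomerases.

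In this comparison 10 calls were made whichever of the 6 libraries was left out: Hspa5, Hsp90b1, Canx, Pdia3, Pdia6, Sdf2l1, Manf, Spcs2, Spcs3 and Derl2. The count was 10 without HS_AOS 3 (363 of all genes called) and 11 without HS_AOSFMT 3 (376), where 1111 of all genes were called with all libraries. After scaling, 15 members and 778 of all genes were called. The median was then 0.21 against -0.02, and the share of higher among all called genes went from 75.0% to 47.9%. Acinar markers summed to 511 to 25145 FPKM in HS_AOS, and with their level as a covariate 5 members were called (0.895% of all genes): Pdia3, Pdia6, Manf, Spcs3 and Derl2. The acinar level, as mean log2(FPKM + 1), did not overlap between the groups (0.62 to 1.94 in HS_AOSFMT, 4.45 to 9.63 in HS_AOS). It therefore cannot be told apart from the group. With the erythroid level as a covariate 11 were called (6.36%). Heat shock genes differed in the same direction, with 7 of 12 called higher and sums of 5232 to 6789 against 2366 to 2969 FPKM, as did T cell markers, with 4 of 8 called higher and sums of 498 to 617 against 315 to 369.6 FPKM. Neutrophil and granule genes were higher too, with 9 of 9 positive, a median of 1.22, sums of 1529 to 2088 against 597 to 886 FPKM and 0 called by limma (0 with an unadjusted p under 0.05). For these 3 lists, their part in the result was not tested.

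The 2 groups with the highest means, HS_AOSFMT and AOS, were compared after their values were seen. Derl2 was called higher (log2 change 0.31, SE 0.067, adjusted p = 0.014) and Lman1 lower (log2 change -0.52, SE 0.114, adjusted p = 0.0141), where 6.05% of all genes were called, 4.44% higher and 1.6% lower. After scaling 4 members were called (5.89% of all genes), and the share of higher among all called genes went from 73.5% to 55.4%. The median was -0.03 against 0.04 over all genes, with 12 of 16 chaperones and isomerases positive and 7 of 9 translocon and signal peptidase genes negative. Without overlap, 9 members were higher (24.5% of all genes) and 9 lower in HS_AOSFMT (12.8%); the latter were Sec61a1, Sec61b, Ssr1, Ssr2, Ssr4, Spcs1, Sec24d, Lman1 and Edem2. Neither call was made whichever library was left out. The count was 0 without AOS 1 or HS_AOSFMT 1 (1.86% and 2.54% of all genes), and 1 without AOS 3 or HS_AOSFMT 3 (2.75% and 2.46%). Plasma cell markers outside the ER were lower in HS_AOSFMT (0 of 8 positive, 4 called: Sdc1, Tnfrsf17, Ell2 and Eaf2), with sums of 623 to 661 FPKM against 937 to 1107. With their mean level as a covariate the median was 0.33 and no member was called by limma (0.162% of all genes). That level did not overlap between these groups (3.82 to 3.88 in HS_AOSFMT, 4.33 to 4.80 in AOS), so it cannot be told apart from the group.

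**Figure D5:**
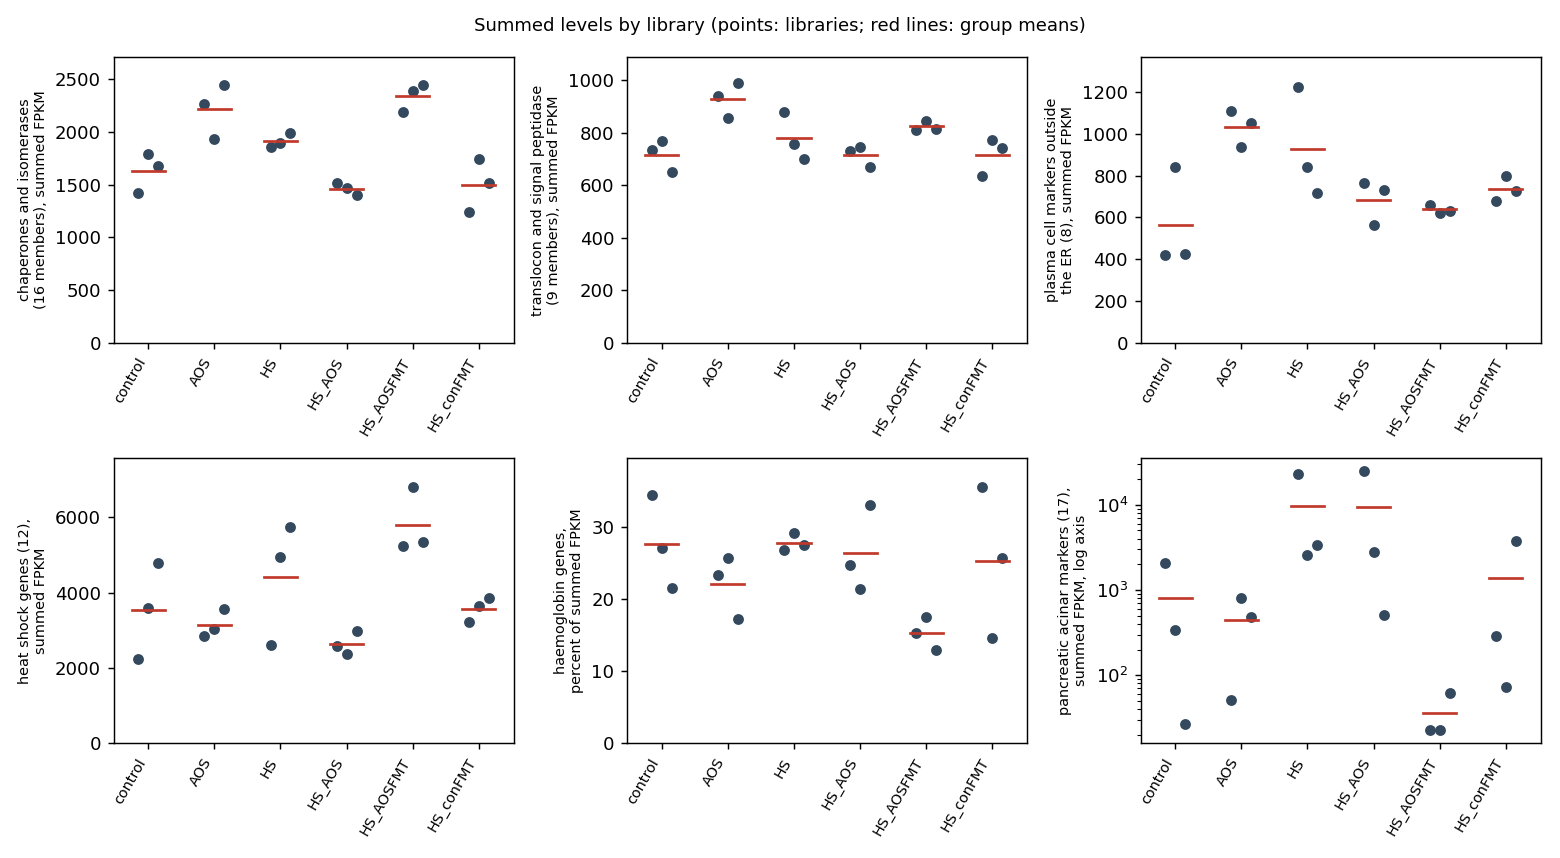
Summed levels by library (points) with group means (red lines): chaperones and isomerases, translocon and signal peptidase, plasma cell markers outside the ER, heat shock genes, the haemoglobin share and, on a log axis, pancreatic acinar markers. Chaperone sums are high in AOS and HS_AOSFMT, plasma cell sums are highest in AOS and HS 1, and HS_AOSFMT has the lowest group means of the haemoglobin share and the acinar sum.

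Set against the promoter elements, the 8 members with an ER stress element had a median log2 change of 0.62 in HS_AOSFMT against HS_conFMT, with 6 called, and the 21 matched members without one had 0.27, with 7 called. Among chaperones and isomerases alone, the 7 matched without the element had a median of 0.55, with 4 called. In AOS against control the medians were 0.33 with the element and 0.35 without. Pdia3 and Dnajb9, which rose in HS_AOSFMT against HS_conFMT, had no element in these windows, and Syvn1, which holds one, was not called (log2 change 0.23, SE 0.122, adjusted p = 0.279). These values describe the members and were not tested.

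The wider pathway was followed in 81 further genes in 5 lists, all of them tested: UPR signalling (13), folding and quality control (18), translocation and N-glycosylation (20), ERAD machinery (13) and COPII transport with ER retrieval (17). The F test called 10 of the 81 (12.3%, against 5.08% of all genes). In HS_AOSFMT against HS_conFMT, 7 rose and 2 fell, against 4.81% and 1.04% of all genes, with a median of 0.12 against 0.06. Ostc and Stt3b, of the oligosaccharyltransferase, rose (log2 change 0.52, adjusted p = 0.00742, and 0.33, adjusted p = 0.0126), as did Sec11a, the catalytic subunit of signal peptidase (from 63.7 ± 4.79 to 80.9 ± 4.31 FPKM, adjusted p = 0.0156). Sil1, a nucleotide exchange factor of BiP, fell from 9.85 ± 1.11 to 6.53 ± 0.975 FPKM (adjusted p = 0.0126).

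In HS_AOSFMT against HS, 7 of the 81 rose and 1 fell, near the 8.08% and 1.15% of all genes (median 0.09 against 0.10), again with Sec11a (log2 change 0.47, adjusted p = 0.00368) and Sil1 (-0.58, adjusted p = 0.00754) having the smallest p-values. In HS_AOSFMT against HS_AOS, 10 rose and 1 fell, against 6.42% and 2.14% of all genes (median 0.14 against 0.06); Selenok and Selenos, selenoproteins of the ERAD complex, gave 0.53 and 0.53 (adjusted p = 0.00497 for both). No UPR signalling gene was called by limma in any of these 3 comparisons. Over all genes, 9.23%, 5.85% and 8.57% were called against HS, HS_conFMT and HS_AOS. In that order 3, 1 and 4 of the 13 had an unadjusted p under 0.05, as had 3631, 2951 and 3406 of the 12967 genes.

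In AOS against control none of the 81 was called by limma, 42 had an unadjusted p under 0.05 (1471 of 12967 genes in all) and 70 were positive (median 0.19 against 0.05). The smallest p-values were those of Txndc5, a disulfide isomerase, at 149.6 ± 30.3 FPKM in AOS and 80.9 ± 14.5 in control, Kdelr2, which retrieves ER proteins, at 39 ± 2.07 and 31.3 ± 1.17, and Xbp1, the factor that Ern1 activates by splicing its mRNA, at 87.7 ± 14 and 55.3 ± 6.2. Derl3, which holds an ER stress element as the 8 members do, stood at 29.3 ± 7.03 and 10.8 ± 6.37 (SD, n = 3). None of the 81 was called by limma in HS against control, HS_AOS against HS, HS_conFMT against HS or the difference between the AOS effects, where 9, 5, 7 and 35 had an unadjusted p under 0.05 (830, 674, 819 and 773 of all 12967 genes). In HS_AOSFMT against AOS, Sec11a rose and 5 of the 81 fell, against 4.44% and 1.6% of all genes (median -0.06 against 0.04): Sil1, Txndc5, Tram2, Fkbp11, a prolyl isomerase, and Bhlha15 (Mist1), a transcription factor of secretory cells. Fkbp11 fell from 21.1 ± 5.72 to 5.93 ± 2.29 FPKM (adjusted p = 0.0216) and Bhlha15 from 5.54 ± 1.54 to 1.79 ± 0.0808 (adjusted p = 0.0161).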

How the data were processed

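RNA sequencing of spleen was deposited as a single table of gene values for 18 libraries. The authors' deposited values are taken as FPKM from their range and sums, since no header or label names the unit; per the submitters' processing notes, reads were aligned with Bowtie 0.12.2 to mm10. Read depth is not given in the sources used here, so counting error is unknown. FPKM is a share of each library, so a library rich in haemoglobin lowers all other genes.

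Of 19323 symbols (the higher of 2 lines was kept for 3 symbols), 12967 passed a filter (1 FPKM or more in 3 or more of the libraries) and were tested on log2(FPKM + 1) with limma 3.58.1 in R 4.3.3 (lmFit, then eBayes with trend and robust), 2-sided, with group as the only factor, all 18 libraries in the fit and Benjamini-Hochberg adjustment over all genes at a threshold of 0.05. Fold changes on this scale understate those of low genes. Groups and replicate numbers came from the labels. The members and lists were chosen with earlier results of these data known. Values in every library are given for members called in any comparison, up to 6 with the smallest p in each comparison, the 8 with the smallest F test p, and the sensors. Outside that rule, Pdia4 and Sec24d are also given in every library, and Pdia5 and Edem2 only by group means. Up to 4 further pathway genes are named per comparison by smallest p, and any others were named after their values were seen. Alternatives were another pseudocount, no filter, scaling outside haemoglobin, marker levels as covariates, a replicate block, only the groups compared, and leaving out libraries. Scripts were tested on simulated data.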

Additional observations from a re-analysis of the deposited data

How the results depend on the processing

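No call reversed its direction under the alternatives run. Of the values of single members, 1054 stayed on their side of the threshold, 152 lost and 24 gained a call. The 1054 include members not called in the reported fit, which could not lose a call. Calls made whichever library was left out were 1 of 4 in HS_AOSFMT against HS and 8 of 16 against HS_conFMT. They were 10 of 17 against HS_AOS and 0 of 2 against AOS. Of the members' counts 76 were close to the reported value and 22 were not, and of their medians 67 and 13. The median of HS against control was 0.026 with the plasma cell level as a covariate, and that of AOS against control 0.020, and 0.22 with the erythroid level. For HS_AOSFMT against HS the count of called members was 1 after scaling outside haemoglobin (3.07% of all genes called). It was 0 with the acinar (0.123%), 13 with the plasma cell (8.33%) and 1 with the erythroid covariate (2.36%). It was 2 without HS 1, HS_AOS 1 and control 1 together (3.12%) and 10 without HS_conFMT 1 and control 1 together (15.8%). With only the groups compared fitted it was 12, where 1540 of all genes were called. The members' median was 0.047, 0.26 and 0.033 after scaling and with the plasma cell and erythroid covariates. It was 0.19 without HS 1, HS_AOS 1 and control 1. For HS_AOSFMT against HS_conFMT the count was 8 with the acinar covariate (2.42%) and 10 without HS_conFMT 1 and control 1 (2.43%, median 0.20). With only the groups compared fitted it was 4, where 191 of all genes were called. For HS_AOSFMT against HS_AOS the count was 5 with the acinar (0.895%) and 11 with the erythroid covariate (6.36%). The median was 0.21 after scaling, 0.40 with the plasma cell and 0.17 with the erythroid covariate. For the difference between the AOS effects, 1 member was called after scaling, with the erythroid covariate and without HS_conFMT 1 and control 1 (0.0154%, 0.0154% and 0.0232%). For HS_AOSFMT against AOS the count was 4 after scaling (5.89%), 0 with the plasma cell (0.162%) and 7 with the erythroid covariate (10.4%). It was 7 without HS_conFMT 1 and control 1 (10.0%). With only the groups compared fitted it was 6, where 1858 of all genes were called. The median was 0.33 and -0.099 with the plasma cell and erythroid covariates. The F test called 11 members with the acinar covariate, and 217 of all genes. The cause of these shifts was not tested.

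Leaving out each library in turn gave counts of 0 in HS against control, HS_AOS against HS and HS_conFMT against HS, 1 to 4 in HS_AOSFMT against HS, 8 to 20 against HS_conFMT, 10 to 15 against HS_AOS, 0 to 2 against AOS, 0 to 1 in AOS against control, 0 to 3 in the difference of effects and 4 to 24 in the F test. The medians ran from 0.14 to 0.24 in HS against control, -0.19 to -0.13 in HS_AOS against HS, 0.091 to 0.19 in HS_AOSFMT against HS, -0.26 to -0.10 in HS_conFMT against HS, 0.20 to 0.43 against HS_conFMT, 0.27 to 0.32 against HS_AOS, 0.26 to 0.43 in AOS against control and -0.094 to 0.024 against AOS. Over all genes, the same fits called 200 to 751 in HS_AOSFMT against HS, 198 to 1200 against HS_conFMT and 363 to 1033 against HS_AOS. They called 241 to 417 against AOS, 1 to 45 in AOS against control, 1 to 4 in the difference of effects and 80 to 1520 in the F test.

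Counts over all genes also moved: 1197 in HS_AOSFMT against HS became 398 after scaling, 16 with the acinar and 306 with the erythroid covariate, 403 without HS 1, HS_AOS 1 and control 1 and 2045 without HS_conFMT 1 and control 1; 759 against HS_conFMT became 439, 314, 1158, and 314 without the latter libraries, and 191 with only the groups compared fitted; 1111 against HS_AOS became 116 with the acinar covariate, 705 and 1739 without those sets; and 659 in the F test became 217 with the acinar covariate. Over all genes, deviations from group means correlated at -0.37 to 0.49 between libraries with the same replicate number. The correlation was over 0.1 in 15 of 45 such pairs, and in 30 of 90 pairs with different numbers (-0.57 to 0.44). The numbers were therefore not taken to pair libraries, though a correlation over all genes cannot show that no list follows them. Heat shock sums were lowest in replicate 1 in every group but HS_AOS. With the number as a replicate block the count of called members was 6 in HS_AOSFMT against HS (11.2% of all genes) and 5 against AOS (7.66%). It was 16 and 17 against HS_conFMT and HS_AOS (7.01% and 10.3%). Depth is unknown, which limits what can be said of low genes such as Ern1.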
